A study of Mus musculus with 4 samples.

Results

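The 10 genes *Dusp1*, *Dusp4*, *Dusp5*, *Dusp6*, *Dusp8*, *Spry1*, *Spry2*, *Spry4*, *Spred1* and *Spred2* encode feedback inhibitors of MAP kinase signaling. They were chosen by name, by a rule that uses no measured value but was written with earlier results of these data known, and all 10 are among the 24322 gene symbols measured. RNA was sequenced from retinal cells of mice that were positive for mTFP and had been sorted by flow cytometry (FACS). The 2 control libraries (numbers 7984 and 3911) came from mice with 1 floxed and 1 wild-type *Rax* allele (Raxflox/WT), and the 2 *Rax* iCKO libraries (numbers 7983 and 3914) from mice with both alleles floxed (Raxflox/flox). All 4 also carry Rlbp1-CreERT2, a tamoxifen-dependent Cre under a promoter fragment of the Müller glial gene *Rlbp1*, and R26-CAG-LoxP-mTFP1, a reporter that turns on mTFP after recombination. The labels give 129S6 as the background of all 4. Tamoxifen was given to both groups at postnatal day (P) 4, and retinas were taken at P14. Control cells therefore keep 1 *Rax* allele that cannot recombine, and the promoter fragment is also active in the pigment epithelium.

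Expression is given as FPKM, fragments per kilobase of transcript, scaled to the mapped reads of the library. *Rax*, the targeted homeobox gene, was at 189 and 181 FPKM in control libraries 7984 and 3911 and at 111 and 98.4 FPKM in *Rax* iCKO libraries 7983 and 3914, so that its RNA remained at 0.566 of the control mean. An estimated 9210000 to 12600000 reads lay behind each library. The 16 Müller glial markers (*Apoe* and *Rlbp1* the most abundant) summed to 16591 and 13222 FPKM in control and to 11219 and 11501 in *Rax* iCKO, and the 10 rod markers (*Sag* and *Pde6g*) to 1809 and 1742 and to 1196 and 1013. The 8 bipolar cell markers (*Pcp2* among the most abundant) summed to 3666 and 8493 FPKM in control and to 4922 and 7136 in *Rax* iCKO, so transcripts of neurons were abundant among the sorted cells as well. *Pcp2* sets much of that sum, and without it the other 7 summed to 1595 and 1978 FPKM in control and to 2195 and 2290 in *Rax* iCKO. Of the 8 bipolar markers, 7 had the higher mean in *Rax* iCKO and 5 had both *Rax* iCKO libraries above both controls, beside 15.4% of all tested genes, with a median log2 difference of 0.34. The other way, 15 of the 16 Müller glial markers had the lower mean and 6 had both *Rax* iCKO libraries below both controls (median -0.33), as did 10 and 9 of the 10 rod markers (median -0.70), beside 14.1% of all tested genes below. In such bulk samples, fewer cells of a type and less RNA per cell cannot be told apart. The Y-linked *Eif2s3y* and *Ddx3y* were above 0 only in library 7983, and *Xist* was at 24.5 and 21.2 FPKM in the controls but at 0.0119 and 0.00605 FPKM in the *Rax* iCKO libraries, so that the level of *Xist* and the genotype cannot be told apart here. Library 3914 had neither the Y-linked transcripts nor *Xist* at the control level, so these genes do not settle its sex. If sex differed between the groups, it cannot be told apart from genotype for any gene.

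As background, growth factors acting on receptor tyrosine kinases activate Ras, Raf, MEK and the kinase ERK, while stress activates the related kinases JNK and p38. Active ERK enters the nucleus and induces immediate early genes, and among its targets are its own inhibitors. Dual-specificity phosphatases (Dusp) remove the activating phosphates from the kinases, whereas Sprouty (Spry) and Spred proteins act further upstream, between the receptor and Raf. The RNA levels of these inhibitors are therefore often read as a trace of recent MAP kinase activity. In Müller glia, ERK signaling is known to respond to injury and to growth factors.

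No feedback gene differed between *Rax* iCKO and control after Benjamini-Hochberg adjustment in limma, in which 9 of the 10 genes were tested and all had an adjusted p of 0.9999. Across all 12363 genes with a mean of at least 1 FPKM, 0.0243% passed at 0.05. At an unadjusted p under 0.05 the count was 0 of 9 feedback genes, against 2.86% of all tested genes. For *Dusp1* and *Dusp6*, each *Rax* iCKO library was lower than either control, an order found in 14.1% of tested genes, and in *Dusp5* both lay above, as in 15.4%. The median difference over the 9 genes was -0.24 on the log2(FPKM + 1) scale, beside -0.00 over all tested genes, and 5 of the 9 had the lower mean in *Rax* iCKO, as did 50.8% of all tested genes. Without control library 7984 that median was 0.39, and without *Rax* iCKO library 3914 it was 0.31. With 2 libraries against 2, the smallest two-sided p that an exact permutation test can give is 0.333.

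**Figure D1:**
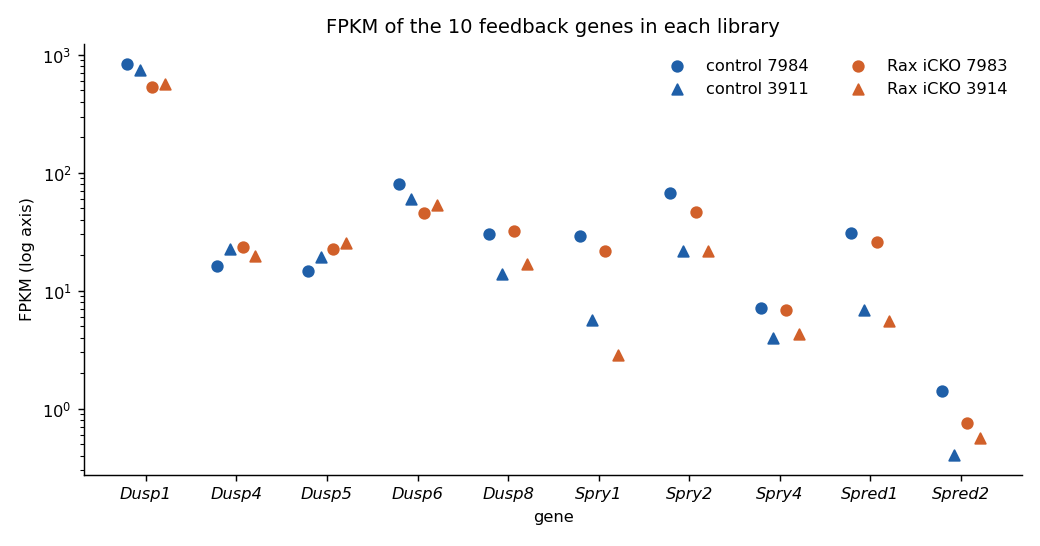
FPKM on a log axis for each of the 10 feedback genes, with 1 point per library, by genotype and library number. *Dusp1* sits far above the rest, and the 4 points of *Spry1*, *Spry2* and *Spred1* split by library number rather than by genotype.

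*Dusp1* was the most abundant of the 10 genes in every library. It encodes a nuclear phosphatase of p38, JNK and ERK and is itself an immediate early gene. Its level was 843 and 740 FPKM in control libraries 7984 and 3911 and 536 and 562 FPKM in *Rax* iCKO libraries 7983 and 3914. All 4 values stood between the 99.1st and the 99.6th percentile of tested genes. The *Rax* iCKO mean, 549 ± 18.6 FPKM (SD, n = 2), was 0.693 of the control mean, 792 ± 73.1 FPKM (SD, n = 2). On the log2(FPKM + 1) scale the difference was -0.52 with a standard error of 0.29, and its 95% interval ran from -1.22 to 0.17. The gap between the genotypes was larger than the spread within either, but quantile normalization brought the difference to -0.29 and let the groups overlap.

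*Dusp6* encodes the cytoplasmic phosphatase that acts on ERK with little activity on the other kinases, and it is a common marker of ERK output. Control libraries 7984 and 3911 held 80.8 and 60.2 FPKM and *Rax* iCKO libraries 7983 and 3914 held 45.3 and 52.9 FPKM. The groups did not overlap, and the *Rax* iCKO mean was 0.696 of the control mean. The means were 70.5 ± 14.6 FPKM (SD, n = 2) in control and 49.1 ± 5.39 FPKM (SD, n = 2) in *Rax* iCKO, a log2 difference of -0.50 (standard error 0.24, 95% interval -1.08 to 0.07). Much of its size rested on library 7984, without which the log2 difference was -0.29. The ratio of *Dusp1* to *Dusp6* within a library ranged from 10.4 to 12.3, and control and *Rax* iCKO overlapped in it. The difference between genotypes also ran with transcript length, from a median log2 difference of -0.13 in the shortest of 4 length classes of all genes to 0.12 in the longest. *Dusp1*, *Dusp5* and *Dusp6* all belong to the second shortest class, where the median was -0.04, and the part of length in their values was not tested.

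*Dusp5*, a nuclear phosphatase that acts on ERK and holds it in the nucleus, had the opposite order. Its level was 14.8 and 19.3 FPKM in control libraries 7984 and 3911 and 22.8 and 25.3 FPKM in *Rax* iCKO libraries 7983 and 3914. Both *Rax* iCKO values exceeded both controls, with means of 24.0 ± 1.81 FPKM and 17.1 ± 3.18 FPKM (SD, n = 2 each) and a ratio of 1.41. The log2 difference was 0.48 with a standard error of 0.23, its 95% interval ran from -0.08 to 1.04, and it was 0.30 without library 7984. Set within each library, the ratio of *Dusp6* to *Dusp5* was 5.46 and 3.12 in the controls but 1.99 and 2.09 in the *Rax* iCKO libraries. The 2 phosphatases thus stood closer to each other in both *Rax* iCKO libraries than in either control, a ratio chosen after the values were seen and given with no test.

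*Dusp4*, another nuclear phosphatase of ERK, JNK and p38, overlapped between the genotypes. It stood at 16.2 and 22.4 FPKM in control libraries 7984 and 3911 and at 23.4 and 19.8 FPKM in *Rax* iCKO libraries 7983 and 3914, with a log2 difference of 0.17 (95% interval -0.44 to 0.77). Without library 7984 that difference was -0.056. *Dusp8* encodes a phosphatase of JNK and p38, and its level was 30.04 and 13.9 FPKM in control and 32.2 and 16.9 FPKM in *Rax* iCKO. Its values were high in libraries 7984 and 7983 and low in 3911 and 3914, whichever the genotype. The difference between genotypes was 0.18 on the log2 scale (95% interval -0.90 to 1.26), and it was -0.35 without control library 3911 and -0.26 without *Rax* iCKO library 7983.

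Because *Dusp1* was so abundant, it made up between 81.2% and 86.5% of the summed FPKM of the 5 Dusp genes. That sum was 985 and 856 FPKM in control and 659 and 677 FPKM in *Rax* iCKO. The other 4 phosphatases together gave 142 and 116 FPKM in control and 124 and 115 FPKM in *Rax* iCKO, where the groups overlapped.

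The promoters of *Dusp1*, *Dusp6* and *Dusp5*, the genes whose libraries did not overlap between genotypes, are shown as the 250 bases before the RefSeq start, from the GRCm38.p6 assembly and on the strand of the gene. They lie at chr17:26508473-26508722 (minus strand), chr10:99262981-99263230 (plus strand) and chr19:53528895-53529144 (plus strand). Capitals mark a cAMP response element (CRE) in *Dusp1* and a pair of adjoining CArG boxes, the sequence bound by serum response factor, in *Dusp5*.
Dusp1: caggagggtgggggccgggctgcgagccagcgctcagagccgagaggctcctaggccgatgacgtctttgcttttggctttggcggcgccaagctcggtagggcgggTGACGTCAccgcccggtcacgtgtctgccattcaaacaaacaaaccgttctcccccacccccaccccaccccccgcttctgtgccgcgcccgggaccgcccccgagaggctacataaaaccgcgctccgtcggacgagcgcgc
Dusp6: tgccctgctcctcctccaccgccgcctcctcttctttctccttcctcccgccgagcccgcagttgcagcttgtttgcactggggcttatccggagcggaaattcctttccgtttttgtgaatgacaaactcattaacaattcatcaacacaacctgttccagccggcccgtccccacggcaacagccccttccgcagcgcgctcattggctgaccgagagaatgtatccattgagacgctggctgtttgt
Dusp5: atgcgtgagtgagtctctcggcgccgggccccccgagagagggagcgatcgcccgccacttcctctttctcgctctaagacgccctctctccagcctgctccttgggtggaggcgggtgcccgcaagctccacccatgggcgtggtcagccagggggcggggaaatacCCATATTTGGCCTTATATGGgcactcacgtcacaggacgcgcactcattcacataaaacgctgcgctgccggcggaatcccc

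The full CRE, TGACGTCA, was found 143 to 136 bases before the start of *Dusp1*. On either strand it was present in 1.55% of the 32851 promoters searched and in 2 of the 8 feedback gene promoters at hand, *Dusp1* and *Dusp8*. The CArG boxes of *Dusp5* began 82 and 72 bases before its start, and a CArG box was present in 1.47% of all promoters and in no other of the 8. The half-site TGACG, which lies within the full CRE, was in 17.8% of promoters and in 4 of the 8 (*Dusp1*, *Dusp5*, *Dusp8* and *Spred2*). The letters TAATT, studied as a Rax site in the source paper, were in 25.03% of promoters and in 0 of the 8. None of the 8 windows held the AP-1 letters TGANTCA (6.75% of promoters), the ETS letters CCGGAAG (6.91%) or the STAT letters TTCNNNGAA (7.02%). These matches are descriptions of the letters in this window only.

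The Sprouty genes encode membrane-associated adaptors that block signaling from growth factor receptors to Ras and Raf. *Spry2* was the most abundant of them, with 67.2 and 21.5 FPKM in control libraries 7984 and 3911 and 46.6 and 21.6 FPKM in *Rax* iCKO libraries 7983 and 3914. Its means were 44.4 ± 32.3 FPKM and 34.1 ± 17.7 FPKM (SD, n = 2 each), and the log2 difference of -0.26 (95% interval -1.69 to 1.17) was smaller than the spread within either genotype. Without library 7984 it was 0.54 and without library 3914 it was 0.28.

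*Spry1* varied the most between libraries. It was at 29.3 and 5.63 FPKM in control libraries 7984 and 3911 and at 21.8 and 2.84 FPKM in *Rax* iCKO libraries 7983 and 3914. Libraries 7984 and 7983 were high and libraries 3911 and 3914 low in both genotypes, by a factor of 5.20 between the controls and 7.65 between the *Rax* iCKO libraries. The log2 difference between genotypes was -0.60, with a standard error of 0.99 and a 95% interval from -3.02 to 1.83, and it was 0.50 without library 7984 and 0.68 without library 3914.

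*Spry4* had low and nearly equal means, 5.59 ± 2.29 FPKM in control and 5.62 ± 1.84 FPKM in *Rax* iCKO (SD, n = 2 each). Its values of 7.21 and 3.97 FPKM in control and 6.92 and 4.33 FPKM in *Rax* iCKO again had libraries 7984 and 7983 above the other two. The log2 difference was 0.02 (95% interval -0.85 to 0.90), which leaves room for a change of either sign, and it was -0.34 without control library 3911, -0.26 without *Rax* iCKO library 7983 and -0.030 after quantile normalization.

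Spred proteins are relatives of Sprouty that recruit neurofibromin, which turns Ras off, to the membrane. *Spred1* was at 30.8 and 6.80 FPKM in control libraries 7984 and 3911 and at 25.9 and 5.56 FPKM in *Rax* iCKO libraries 7983 and 3914. Here too the split followed the library number, with a log2 difference between genotypes of -0.24 (95% interval -2.32 to 1.83), and of 0.77 both without library 7984 and without library 3914. *Spred2* was near the limit of these data, with 1.41 and 0.403 FPKM in control and 0.753 and 0.562 FPKM in *Rax* iCKO, or an estimated 16 to 76 reads. Its mean lay under 1 FPKM, so it was left out of the tested genes, and with no such limit its log2 difference was -0.15 with a standard error of 0.29 and an adjusted p of 0.995.

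A second comparison, chosen after the values were seen, set libraries 7984 and 7983 against libraries 3911 and 3914. The numbers within each pair are close, but the labels do not say what they mark, and each pair holds 1 control and 1 *Rax* iCKO library. In 6 of the 10 genes (*Dusp8*, *Spry1*, *Spry2*, *Spry4*, *Spred1* and *Spred2*) both libraries 7984 and 7983 lay above both others, and 5 of these were among the 9 tested. That order was found in 26.8% of all tested genes and the opposite one in 29.1%, which none of the 10 feedback genes showed. Among related lists, the first order was found in 6 of 9 adaptors and exchange factors and in 7 of 11 receptor tyrosine kinases. It was also found in 9 of 15 transcripts induced through ERK and in 5 of 10 other negative regulators. The opposite order was found in 1, 1, 0 and 2 of these, so the split is not particular to the feedback genes. Other lists had the first order less often. It was found in 5 of 15 genes of the Ras, Raf, MEK and ERK chain (2 opposite) and 4 of 12 atypical phosphatases (3 opposite). In 18 immediate early genes these counts were 4 and 0, and in 9 growth factor ligands they were 1 and 3. All 5 Sprouty and Spred genes were thus higher in 7984 and 7983, by a ratio of means of 6.02 for *Spry1*, 4.58 for *Spred1*, 2.64 for *Spry2*, 2.24 for *Spred2* and 1.70 for *Spry4*.

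On the log2(FPKM + 1) scale these differences were 2.38 for *Spry1*, 2.03 for *Spred1* and 1.34 for *Spry2*, at the 99.6th, 99.5th and 98.6th percentiles of all tested genes. *Dusp8* followed with 0.97 at the 96.8th percentile. *Dusp1*, *Dusp6*, *Dusp4* and *Dusp5* stood apart from these, with differences of 0.06, 0.10, -0.11 and -0.25. Other features ran with the same split. Of 16 Müller glial markers, 9 had both libraries 7984 and 7983 above both others and 0 the reverse (median difference 0.35). Of 8 tested microglia markers, 4 had that order and 0 the reverse (median 0.92). The microglia markers summed to 40.6 and 74.0 FPKM in libraries 7984 and 7983 and to 43.6 and 9.73 in 3911 and 3914. In that sum the pairs overlapped. The bipolar cell markers summed to 3666 and 4922 FPKM in libraries 7984 and 7983 and to 8493 and 7136 in libraries 3911 and 3914, though without *Pcp2* the sums of the pairs overlapped, and the median difference of all genes ran from -0.25 in the shortest of 4 transcript length classes to 0.21 in the longest. Their part in the result was not tested. Of the 6 genes with this split, *Spred1* and *Dusp8* belong to the class with the longest transcripts, *Spry4* and *Spred2* to the next, *Spry1* to the one after it and *Spry2* to the shortest.

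**Figure D2:**
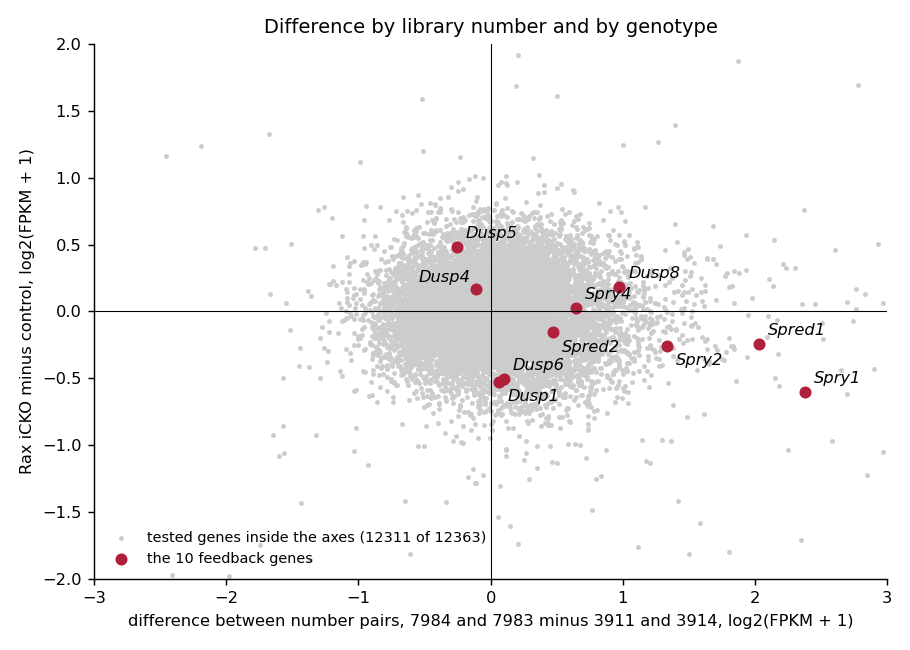
Difference between libraries 7984 and 7983 and libraries 3911 and 3914 (horizontal axis) against the difference between *Rax* iCKO and control (vertical axis), both on the log2(FPKM + 1) scale, for all tested genes and the feedback genes. *Spry1*, *Spred1* and *Spry2* lie far to the right (2.38, 2.03 and 1.34), while *Dusp1* and *Dusp6* lie low (-0.52 and -0.50) near the middle of the horizontal axis.

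Within the pairs, the *Rax* iCKO library was below its control in both pairs for 4 of the 10 genes (*Dusp1*, *Dusp6*, *Spry1* and *Spred1*), as it was in 31.7% of tested genes. It was above in both for *Dusp5* and *Dusp8*, as in 30.7%. For *Spry1* the log2 differences were -0.41 between 7983 and 7984 and -0.79 between 3914 and 3911, and for *Spred1* they were -0.24 and -0.25. *Dusp1* had -0.65 and -0.40, *Dusp6* -0.82 and -0.18, and *Dusp5* 0.59 and 0.37. *Spry2* was -0.52 in the first pair and 0.01 in the second, so its lower mean in *Rax* iCKO came from the first alone. *Dusp4*, *Spry4* and *Spred2* likewise differed in sign between the pairs, and the differences of *Dusp8* were 0.10 and 0.26.

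**Figure D3:**
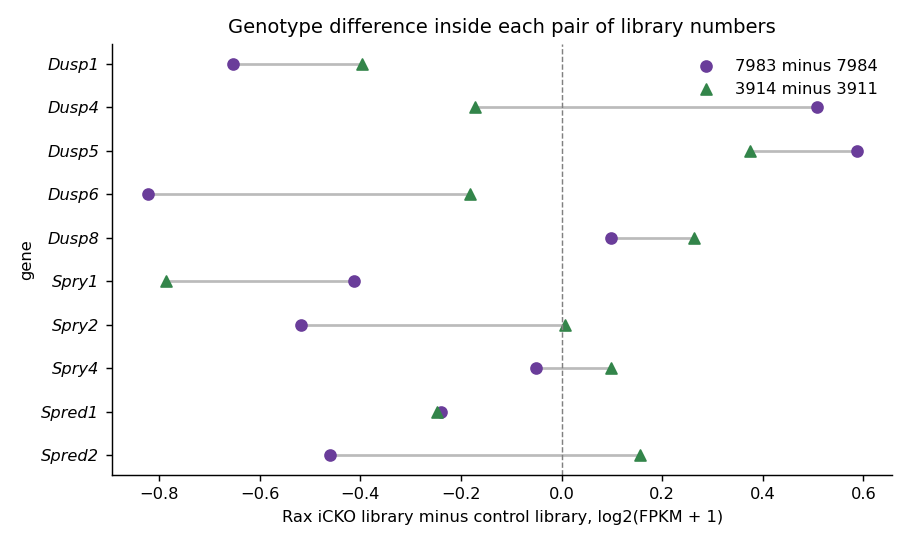
Difference between the *Rax* iCKO and the control library within each number pair (7983 and 7984, 3914 and 3911), on the log2(FPKM + 1) scale, for each feedback gene. *Dusp1*, *Dusp6*, *Spry1* and *Spred1* are below 0 in both pairs, and *Dusp5* and *Dusp8* are above 0 in both.

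Other genes of the pathway were examined in lists of related genes, and 0 genes of the lists passed the adjusted threshold in limma. Among the other MAP kinase phosphatases (*Dusp2*, *Dusp7*, *Dusp9*, *Dusp10* and *Dusp16*), 3 were tested, 2 had the lower mean in *Rax* iCKO and 0 had an unadjusted p under 0.05. *Dusp16*, a JNK phosphatase, had 18.5 and 8.90 FPKM in control and 13.1 and 6.47 FPKM in *Rax* iCKO, and *Dusp10*, which acts on JNK and p38, had 8.75 and 11.2 and 10.3 and 13.8 FPKM. Both overlapped between the genotypes, and *Dusp9* was listed at 0 in all 4 libraries. Of 12 atypical dual-specificity phosphatases (*Dusp26* and *Dusp22* the most abundant), 7 had the lower mean and 0 an unadjusted p under 0.05.

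In the list of other negative regulators, 10 of 12 genes were tested, 4 had the lower mean and 0 had an unadjusted p under 0.05. Its most abundant gene, *Pebp1*, which encodes an inhibitor of Raf, had 467 and 452 FPKM in control and 399 and 344 FPKM in *Rax* iCKO. Those values did not overlap, and *Rasa3*, a GTPase-activating protein for Ras, was the next in abundance. Of 9 adaptors and exchange factors that link receptors to Ras, among them the abundant *Gab1* and *Grb2*, 5 had the lower mean, and in 0 were the groups separate.

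Among 15 genes of the Ras, Raf, MEK and ERK chain, 7 had the lower mean in *Rax* iCKO, beside 50.8% of all tested genes. Under an unadjusted p of 0.05 was 1 gene of the 15, beside 2.86% of all tested genes. That gene was *Rras*, a small GTPase related to Ras, with 51.0 and 37.6 FPKM in control and 30.3 and 27.4 FPKM in *Rax* iCKO, a log2 difference of -0.59. *Araf*, a Raf kinase, had 127 and 128 FPKM in control and 166 and 170 FPKM in *Rax* iCKO, and the groups did not overlap. Of the p38 and JNK kinases, 12 were tested and 8 had the lower mean (median -0.03, *Mapk14* and *Map2k4* the most abundant), with 0 at an unadjusted p under 0.05.

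Beside 50.8% and 2.86% of all tested genes, 7 of 11 tested receptor tyrosine kinases had the lower mean and 1 had an unadjusted p under 0.05. It was *Fgfr3*, an FGF receptor, at 0.125 and 0 FPKM in control and 2.68 and 2.16 FPKM in *Rax* iCKO, which is low in all 4 libraries. It reached the required mean of 1 FPKM only through the *Rax* iCKO libraries, so its place among the tested genes depended on the difference itself. *Fgfr1*, the FGF receptor with the highest level, had 34.1 and 15.4 FPKM in control and 22.8 and 16.0 FPKM in *Rax* iCKO, and overlapped. *Pdgfra*, a receptor for platelet-derived growth factor, was lower in each *Rax* iCKO library than in either control, with a log2 difference of -0.69, and *Kit*, the receptor of stem cell factor, was the other most abundant gene of the list. Of 9 tested growth factor ligands, 2 had the lower mean, and in *Fgf1* both *Rax* iCKO libraries lay above both controls, with a log2 difference of 0.52. *Fgf9* and *Pdgfa* were the most abundant ligands.

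**Figure D4:**
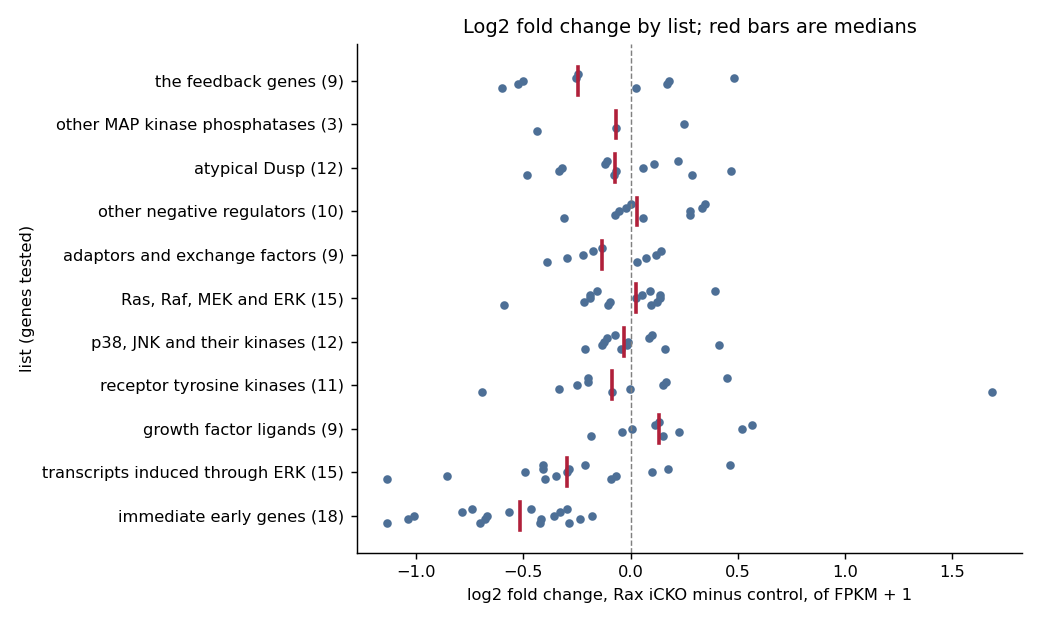
Difference between *Rax* iCKO and control on the log2(FPKM + 1) scale for the tested genes of each pathway list, 1 point per gene, with the median of the list marked. Most medians lie near 0, and those of the immediate early genes (-0.51) and the transcripts induced through ERK (-0.29) are the lowest.

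The list of transcripts induced through ERK had the lower mean in *Rax* iCKO in 12 of 15 tested genes, with a median of -0.29 and 2 genes at an unadjusted p under 0.05, beside 50.8% and 2.86% of all tested genes. It also holds *Elk1*, *Elk3*, *Elk4* and *Srf* (log2 differences 0.10, -0.41, 0.17 and -0.49), whose induction through ERK is not assumed here. *Ier3*, an immediate early gene that affects cell survival, had 29.6 and 24.7 FPKM in control and 15.6 and 8.81 FPKM in *Rax* iCKO, and *Ccnd1*, which encodes cyclin D1, had 16.5 and 11.8 and 8.19 and 6.41 FPKM. In both, the genotypes did not overlap. The most abundant of the list, the transcription factor genes *Fos* and *Egr1*, had log2 differences of -0.29 each. *Egr1* overlapped between the genotypes, with 575 and 393 FPKM in control and 480 and 316 FPKM in *Rax* iCKO, and *Fos* did not, with 1269 and 964 and 929 and 874 FPKM.

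The list of immediate early genes, which shares the tested genes *Fos*, *Egr1* and *Ier3* with the one before, is given beside the Dusp genes that MAP kinase signaling is known to induce (*Dusp1*, *Dusp4*, *Dusp5* and *Dusp6*). All 18 of its tested genes had the lower mean in *Rax* iCKO, in 14 each *Rax* iCKO library was lower than either control, and 7 had an unadjusted p under 0.05, with 0 after adjustment. Over all tested genes the same shares were 50.8% with the lower mean, 14.1% with each *Rax* iCKO library lower and 2.86% at an unadjusted p under 0.05, and this list was chosen with earlier results of these data known. The median was -0.51, beside -0.52 for *Dusp1*, -0.50 for *Dusp6*, 0.17 for *Dusp4* and 0.48 for *Dusp5*, and the list summed to 4482 and 3515 FPKM in control and to 3163 and 2628 FPKM in *Rax* iCKO. Those at an unadjusted p under 0.05 were *Ier2*, *Junb*, *Egr2*, *Zfp36*, *Cyr61*, *Gadd45b* and *Ier3*. *Ier2* had 574 and 594 FPKM in control and 361 and 368 FPKM in *Rax* iCKO. *Nr4a1* and *Ctgf* were lower in both *Rax* iCKO libraries too, with log2 differences of -0.74 and -0.56. The Müller glial and rod marker sums were also lower in both *Rax* iCKO libraries, while the bipolar cell markers other than *Pcp2* summed to more in both. The part of these in the values of the Dusp genes was not tested.

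The genomic positions in GRCm38.p6 are as follows. *Dusp1* lies at chr17:26505591-26508472 on the minus strand, where the annotation also places *Ergic1* on the plus strand. *Dusp6* lies at chr10:99263231-99267489 and *Dusp5* at chr19:53529145-53541809, both on the plus strand, and *Dusp5* overlaps an antisense transcript. *Spry1* lies at chr3:37639947-37644599 and *Spred1* at chr2:117121071-117182279, both on the plus strand, and *Spry2* at chr14:105891947-105896819 on the minus strand. The library kit does not mark strand, so reads of a gene and of an overlapping partner cannot be told apart. *Ergic1*, at 57.4 to 67.6 FPKM, was far under *Dusp1* in every library.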

How the data were processed

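The data are 4 RNA-seq libraries of FACS-sorted mTFP-positive retinal cells, 2 control and 2 *Rax* iCKO, grouped by the genotype in the labels. The labels do not say whether a library holds 1 mouse or several, so p-values measure the spread between these libraries. Reads were single-end and mapped to mm10, and the submitters' processing notes name TopHat2 2.1.1, Bowtie2 2.2.8, SAMtools 0.1.18 and Cuffdiff 2.2.1. The authors deposited 1 FPKM value per gene and library. The labels and the paper name different RNA isolation reagents, so that step is not settled here. FPKM are relative to each library's own mapped reads, so abundant genes affect the rest, and near-identical copies or overlapping genes may share reads. Depth was estimated from the steps between low values in 436 genes, and no count test was run.

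The genotypes were contrasted in R 4.3.3 by limma 3.58.1 (lmFit, then eBayes with a trend) on log2(FPKM + 1), which understates differences in low genes, over the 12363 genes with a mean of at least 1 FPKM, with Benjamini-Hochberg adjustment. Named in the text are the 10 feedback genes, *Rax*, and in each pathway list the genes with an unadjusted p under 0.05, the 2 most abundant, and those with both *Rax* iCKO libraries beyond both controls and an absolute log2 difference of at least 0.5. Some genes that meet this rule are not reported here. *Dusp9*, the bipolar sum without *Pcp2*, and the remaining marker and sex-linked genes, were added after their values were seen. Members and lists were chosen with earlier results of these data known. The comparison by library number, the transcript length classes (longest GENCODE transcript, 96.3% of tested genes) and the ratios within libraries were added after the values were seen. Alternatives were pseudocount 0.1, no filter, a mean of at least 5 FPKM, no variance trend, quantile normalization, a common median, each library left out, and a block by library number. Promoter sequences are from RefSeq (GRCm38.p6), for 8 of the 10 genes.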

Additional observations from a re-analysis of the deposited data

How the results depend on the processing

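The log2 differences of *Dusp1*, *Dusp5* and *Dusp6* ranged from -0.55 to -0.29, 0.46 to 0.50 and -0.53 to -0.46 over pseudocount 0.1, quantile normalization and a common median, and from -0.62 to -0.43, 0.30 to 0.66 and -0.71 to -0.29 when each library was left out, where groups that do not overlap keep their direction by construction. The filters, the variance trend and the block cannot move a difference. When each library was left out, a lone library being assumed to vary like the others, the ranges crossed 0 for *Dusp4* (-0.056 to 0.39), *Dusp8* (-0.35 to 0.71), *Spry1* (-1.88 to 0.68), *Spry2* (-1.06 to 0.54), *Spry4* (-0.34 to 0.39) and *Spred1* (-1.26 to 0.77), and *Spry4* was -0.030 after quantile normalization. Of the tested feedback genes, 2 to 7 then had the lower mean, 2 to 6 had both *Rax* iCKO libraries below the controls, 1 to 4 had both above, and the median ran from -0.62 to 0.39. Quantile normalization left 1 gene below, *Dusp6*. Over all genes, 2 were called lower and 1 higher. Without a filter, or with a mean of at least 5 FPKM, these counts were 0 and 0. Quantile normalization called 2 higher and a common median 3 higher, and leaving out each library called 5 to 12 lower and 7 to 14 higher.

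Whether the library numbers pair the samples is not stated and 2 pairs cannot show it. Libraries correlated at 0.970 within each number pair, 0.952 between controls and 0.955 between *Rax* iCKO libraries. A block by library number called 47 genes lower and 24 higher, and *Rax* then passed (log2 difference -0.82, limma adjusted p = 0.0223). Under it, 4 of the 9 tested feedback genes had an unadjusted p under 0.05, beside 15.7% of all tested genes. No feedback gene passed after adjustment, with adjusted p-values of 0.131 for *Dusp1*, 0.150 for *Spry1*, 0.163 for *Dusp6* and 0.168 for *Dusp5*. The cause of these changes was not tested. *Spred2* rests on an estimated 16 to 76 reads.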
